A study of Mus musculus with 13 samples.

Results

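Spinal cord metastases of a mouse Sonic hedgehog medulloblastoma were compared with primary cerebellar tumours of the same genotype by RNA sequencing of sorted tumour cells. The comparison takes 8 of the 13 libraries of the series, 4 of spinal metastases and 4 of primary tumours, as the sample labels and the columns of the count table name them, and it covers the 22265 genes that passed a low-count filter out of 53653 listed. Both groups carry SmoM2 overexpression, an active mutant of Smoothened, the membrane protein that turns on Hedgehog signalling, and both carry a knockout of Kmt2d. They are called KO metastasis and KO primary, with replicate numbers 3, 4, 6 and 7 in each. The other 5 libraries come from primary tumours with SmoM2 overexpression and without the Kmt2d knockout. They are called controls, numbered 3 to 7, and are given beside the comparison. No metastases without the Kmt2d knockout were analysed here.

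Animals of the knockout genotype were 5 to 8 weeks old and controls were 6 to 16 weeks old. The protocol states papain dissociation of the brain tumours, a sort for GFP and freezing of the sorted cells as pellets. A metastasis pellet held 100000 to 3000000 cells and a primary pellet 1000000 to 5000000. The sources used here do not give the driver of Cre recombinase, the deleted part of Kmt2d, or whether a metastasis and a primary tumour of the same number came from 1 mouse. Nothing in the labels says that libraries of a group came from separate animals, so p-values measure the spread between these libraries.

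As background, Sonic hedgehog medulloblastoma arises from granule cell precursors, the cerebellar cells that divide under Sonic hedgehog and then become granule neurons. It spreads through the cerebrospinal fluid to the leptomeninges and the spinal cord, where the cells lie beside white matter rich in oligodendrocytes and microglia. KMT2D is a methyltransferase that places methyl groups on lysine 4 of histone H3 at enhancers. A sort on GFP enriches labelled tumour cells but can let other cells or their RNA through, and in bulk RNA a change in the number of cells of a type and a change in RNA per cell cannot be told apart.

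Levels are read counts scaled to library size with TMM factors (CPM, receptor sums without the factors). Libraries held 27086589 to 40813242 counted reads in KO metastasis and 35200324 to 41412288 in KO primary. Metastasis 3 stood apart: transcripts of the mitochondrial genome made up 2.06% of its counts, beside 0.745% to 0.86% in the other 3 metastases, and the ribosomal RNA gene Rn18s-rs5 made up 1.18%, beside 0.214% to 0.306%. A second feature divided libraries of each group. Olfactory and vomeronasal receptor genes, which tumour cells are not known to use, summed to 565 CPM in metastasis 6, 349 in metastasis 7, 723 in primary 7 and 1752 in control 3, but to 6.08 to 83.5 in the other 9 libraries. These 4, all above 100 CPM, are called the high-background libraries below, and results that rest on them or on metastasis 3 are given with and without them. Without these 4 libraries, metastases 3 and 4 and primaries 3, 4 and 6 remain. Counts of positive changes with libraries left out compare the mean CPM of the libraries that remain. Medians and log2 changes with libraries left out come from new fits, so the 2 measures can differ. Log2 changes are KO metastasis minus KO primary from 1 edgeR quasi-likelihood fit of all 13 libraries, so the 5 controls share in the estimate of the spread.

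Of all genes tested, 1 separated metastases from primary tumours at the threshold used. Mbp, which encodes myelin basic protein, rose in the metastases, and no gene fell. This was 1 of 22265 genes, or 0.00449%, at an edgeR adjusted p below 0.05. The next smallest edgeR adjusted p was 0.249, so every gene other than Mbp named below missed the threshold, and its values are given without a call. The unadjusted p was below 0.05 for 720 genes (3.23%), 433 of them higher in the metastases (1.94%) and 287 lower (1.29%). Without any group difference a share of 0.05 would pass, so 3.23% is no excess. With DESeq2 on the same counts 28 genes were higher and 5 lower, and with limma voom 1 was higher and 1 lower. The limma voom fit weighted libraries by their quality, so they did not count equally. In 384 genes (1.72%) the 4 metastases did not overlap with the 4 primaries. The metastases lay above in 152 (0.683%) and below in 232 (1.04%). With 4 libraries a group such separation can also arise by chance. It is given below as a description, not as a test. For genes named by the size of their change, no overlap was a condition of the choice and so not a result. The median log2 change over all genes tested was -0.004, and 49.6% of genes had a change above 0. Among the 11301 genes with a mean of at least 5 CPM in the higher group, the median standard error of the log2 change was 0.213 and the median absolute change was 0.163. In this set 159 genes were at least 2-fold higher in the metastases (1.41%) and 60 at least 2-fold lower (0.531%), while 250 (2.21%) and 246 (2.18%) had an unadjusted p below 0.05 in these directions. The plot of all genes shows the level and change of each.

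**Figure D1:**
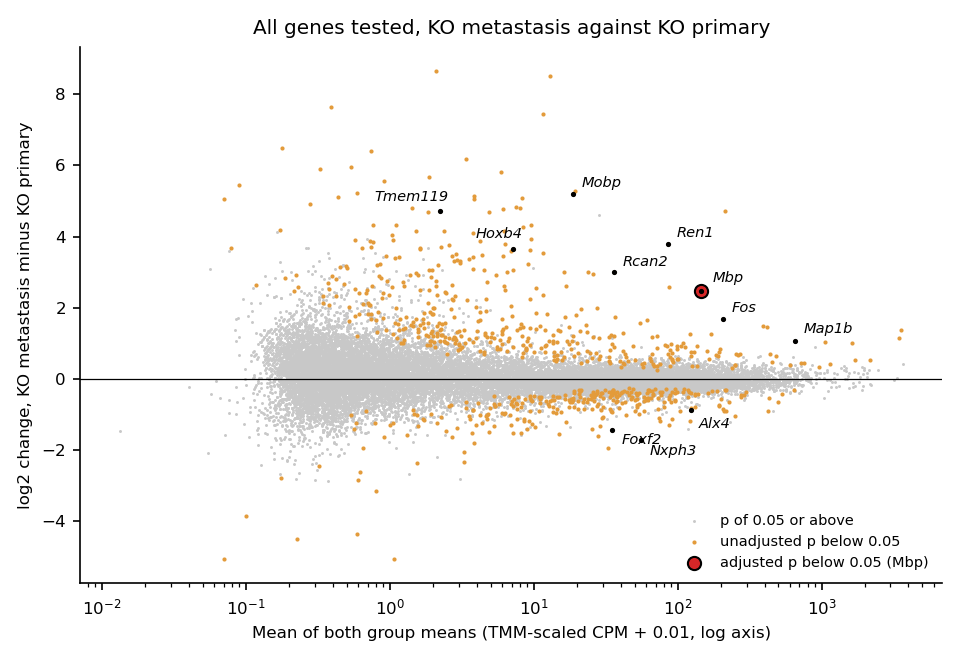
Each point is 1 of the 22265 genes tested, with the mean of both group means (TMM-scaled CPM + 0.01, log axis) on the x axis and the log2 change from KO primary to KO metastasis on the y axis. Orange points have an unadjusted p below 0.05, labelled genes are black and the red point is Mbp, the only gene with an edgeR adjusted p below 0.05.

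Whole libraries were compared by a distance, the median absolute log2 difference over genes of at least 5 CPM. It ran from 0.177 to 0.551 (median 0.242) over the 16 pairs of a metastasis and a primary tumour, from 0.171 to 0.283 (median 0.256) over the 6 pairs of primaries, and from 0.171 to 0.512 (median 0.336) over the 6 pairs of metastases. The long distances within the metastases were those to metastasis 3. Without metastasis 3 and control 3, metastases lay 0.177 to 0.314 from the primaries (12 pairs, median 0.211) and 0.171 to 0.283 from each other (3 pairs, median 0.232). Controls lay 0.219 to 0.358 from the KO primaries (median 0.303) and 0.225 to 0.334 from the metastases (median 0.282) in the same set. Distances between the KO groups thus overlapped with those within KO primary. The median SD within a group, on the log2 scale, was 0.216 in KO primary and 0.305 in KO metastasis. Median log2 levels per autosome, over 9812 genes, were taken against the mean of the KO primaries and then centred within each library. They stayed between -0.026 and 0.038 in metastases 4, 6 and 7. In the primaries, which make up the reference, they stayed between -0.025 and 0.046. In metastasis 3 they ran from -0.127 on chromosome 18 to 0.126 on chromosome 7.

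**Figure D2:**
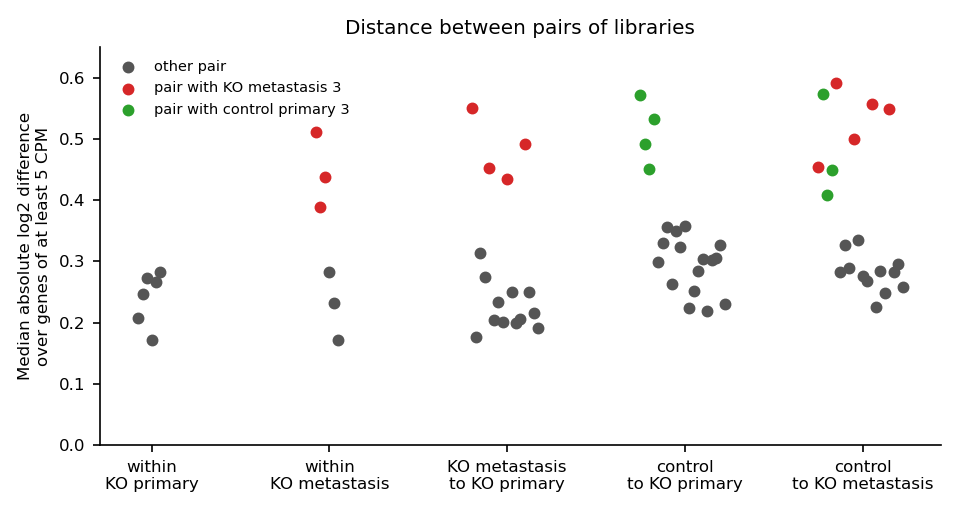
Each point is 1 pair of libraries, placed by the kind of pair on the x axis and by the median absolute log2 difference over genes of at least 5 CPM on the y axis. Pairs with metastasis 3 are red and pairs with control 3 are green. The other pairs of a metastasis and a KO primary overlap with the pairs within KO primary.

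The 1 gene called is on the list of oligodendrocyte markers. Which cells its reads came from was not tested. Mbp, a structural protein of the myelin sheath that the oligodendrocyte lineage makes in large amounts, was at 55.9, 39, 38.9 and 43.1 CPM in primaries 3, 4, 6 and 7 and at 134, 251, 406 and 191 CPM in metastases 3, 4, 6 and 7. The lowest metastasis was above the highest primary by more than the whole range of the primaries. Means ± SD over 4 libraries a group were 44.2 ± 8.03 and 245 ± 117 CPM. Mbp rose by 2.47 on the log2 scale (SE 0.318, 95% interval 1.79 to 3.16, edgeR adjusted p = 0.0485). The 5 controls lay at 63.9 to 144 CPM, between the KO groups except that control 4 was above metastasis 3. The call is close to its threshold. Mbp was still called without control 4, control 5 or metastasis 3 (edgeR adjusted p = 0.0265, 0.0246 and 0.015). It was not called without control 3, 6 or 7 (0.0521, 0.102 and 0.104), primary 3, 4, 6 or 7 (0.17, 0.463, 0.48 and 0.355), or metastasis 4, 6 or 7 (0.144, 0.0684 and 0.0948), with log2 changes of 2.15 to 2.64 in these edgeR fits.

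Mobp, a further myelin structural gene on chromosome 9 (positions 120149707 to 120181484, + strand, GRCm38), had the second smallest p. It was at 0.443, 0.816, 0.741 and 1.95 CPM in the primaries and at 9.59, 29.9, 78.0 and 28.1 CPM in the metastases. The groups did not overlap, and the log2 change was 5.20 (SE 0.83, edgeR adjusted p = 0.249). Plekhb1, a pleckstrin-homology protein found in oligodendrocytes, was at 2.4, 2.53, 5.18 and 2.95 CPM in the primaries and at 6.32, 7.48, 32.8 and 15.9 CPM in the metastases (log2 change 2.26, SE 0.528), again without overlap.

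Further myelin genes followed another pattern across the 4 metastases. Mag, a glycoprotein of the inner myelin membrane, was at 0.13, 0.0272, 0.899 and 2.84 CPM in the primaries, at 0.467 and 0.981 CPM in metastases 3 and 4, and at 109 and 39.6 CPM in metastases 6 and 7 (log2 change 5.27, SE 1.55). Mog, on the outer face of the sheath, was at 0.397 to 1.41 CPM in the primaries and at 1.47, 1.01, 28.2 and 16.0 CPM in the metastases. Cnp, a myelin phosphodiesterase, was at 11.8, 16.2, 20.8 and 17.9 CPM in the primaries and at 11.1, 14.2, 132 and 67.5 CPM in the metastases. In these 3 genes metastases 3 and 4 lay among the primaries or just outside their range (Mog just above in metastasis 3, Cnp just below), and metastases 6 and 7 lay far above.

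Over all genes tested, 1.94% were higher and 1.29% lower at an unadjusted p below 0.05, and 49.6% had a positive change. All 12 oligodendrocyte markers listed were tested. 1 was called, 10 were higher at an unadjusted p below 0.05 and none was lower, and all 12 had a positive log2 change, with a median of 3.13 beside -0.004 over all genes. Their summed level was 76.1 to 114 CPM in the primaries, 182 and 324 CPM in metastases 3 and 4, and 1998 and 858 CPM in metastases 6 and 7. It was 151 to 430 CPM in the controls. The high summed levels are those of the 2 metastases with high receptor background, and the part of that background was not tested. Without the high-background libraries 10 of the 12 still had a positive change and the median was 0.91. Mbp was then 2.11 on the log2 scale (edgeR adjusted p = 0.104) and Mobp 4.89. Primary 7 and control 3, the other high-background libraries, summed to 114 and 311 CPM.

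Some genes of mature oligodendrocytes, named after their values were seen, split the metastases in the same way. Ermn is also on the list of oligodendrocyte markers counted above. Because the genes were chosen with their values known, the split is a description and not a separate result. Klk6, a protease of mature oligodendrocytes, was at 0, 0.0796, 66.7 and 24.9 CPM in metastases 3, 4, 6 and 7 and at most 0.406 CPM in the primaries. Hapln2, a link protein of the node of Ranvier, was at 0, 0.212, 35.8 and 10.1 CPM in these metastases and at most 0.677 CPM in the primaries. Ermn, a cytoskeletal protein of the myelinating cell, was at 0.0359, 0.796, 26.5 and 10.2 CPM, with primaries at 0.843 CPM or less. Apod, a lipid-binding protein, was at 2.77, 2.02, 126 and 37.6 CPM, with primaries at 3.54 to 8.91 CPM.

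Markers of oligodendrocyte precursors had the opposite sign. The share of all genes lower at an unadjusted p below 0.05 was 1.29%, and 49.6% of all genes had a positive change. All 10 listed were tested, none was called, 2 were lower and none higher at an unadjusted p below 0.05, and 9 had a negative change (median -0.65). That median was -0.34 without primary 7, -0.33 without metastasis 3, -0.28 without metastasis 4, -1.12 without the high-background libraries and -0.17 with limma voom. Pdgfra, the growth factor receptor that defines these precursors, was at 181, 147, 149.9 and 151 CPM in the primaries and at 47.1, 85.9, 121 and 103 CPM in the metastases. The groups did not overlap, with a log2 change of -0.82 (SE 0.336). Olig2, a transcription factor of the lineage that Hedgehog tumours also express, was at 160.4, 152, 165 and 37.0 CPM in the primaries and at 69.8, 108, 87.9 and 33.5 CPM in the metastases. Replicate 7 was the lowest of each group, and the groups overlapped. The summed level of the precursor markers was 729 to 1161 CPM in the primaries, 641 to 769 CPM in the metastases and 1132 to 1555 CPM in the controls.

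Genes of microglia and macrophages were higher in the metastases, again mainly in replicates 6 and 7. At an unadjusted p below 0.05, 1.94% of all genes were higher, and 49.6% of all genes had a positive change. Of 16 markers listed, 15 were tested, none was called, 13 were higher at an unadjusted p below 0.05, none was lower, and all 15 had a positive change (median 3.31). Tmem119, a surface marker of microglia, was at 0.026, 0.0816, 0.264 and 0.271 CPM in the primaries, from 1 to 10 reads each, and at 1.76, 0.557, 7.27 and 7.57 CPM in the metastases, from 21 to 263 reads each. The groups did not overlap, and its log2 change was 4.71 (SE 0.926, edgeR adjusted p = 0.929). Csf1r, the receptor that microglia and macrophages need to survive, was at 0.208, 2.83, 0.529 and 2.09 CPM in the primaries and at 3.91, 3.00, 30.8 and 31.8 CPM in the metastases, without overlap but with metastasis 4 only just above primary 4.

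Further microglial genes were also highest in metastases 6 and 7. C1qa, a chain of the complement protein C1q, was at 0.026, 1.77, 0.0529 and 1.41 CPM in the primaries and at 7.65, 1.14, 33.1 and 21.5 CPM in the metastases. P2ry12, a purine receptor of resting microglia, was at 0.208 to 0.84 CPM in the primaries, 0.682 and 0.663 CPM in metastases 3 and 4, and 9.94 and 10.9 CPM in metastases 6 and 7. Ctss, a lysosomal protease of macrophages, was at 0.476 to 1.39 CPM in the primaries and at 5.64, 0.902, 38.8 and 27.2 CPM in the metastases. Metastasis 4 lay within the range of the primaries for all 3 genes. The chemokine genes Ccl3 and Ccl4, which activated microglia release, were at most 0.271 CPM in the primaries. Ccl3 was at 3.66, 0.106, 6.46 and 4.34 CPM and Ccl4 at 2.84, 0.451, 5.41 and 5.50 CPM in the metastases.

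The summed microglial markers were at 6.20, 28.3, 6.45 and 20.8 CPM in the primaries and at 54.5, 18.9, 271 and 230.3 CPM in the metastases. The controls spanned 12.8 to 132 CPM and so overlapped with both groups. Metastases 6 and 7 were again the high-background ones, and the part of that background in these levels was not tested. Without the high-background libraries 13 of the 15 markers had a positive change and the median was 1.47. With metastasis 3 left out as well, which leaves metastasis 4 alone, the median was 0.54. Apoe, a lipid carrier of glia and macrophages, was at 12.2 to 46.1 CPM in the primaries and at 75.0, 25.1, 264 and 233 CPM in the metastases.

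**Figure D3:**
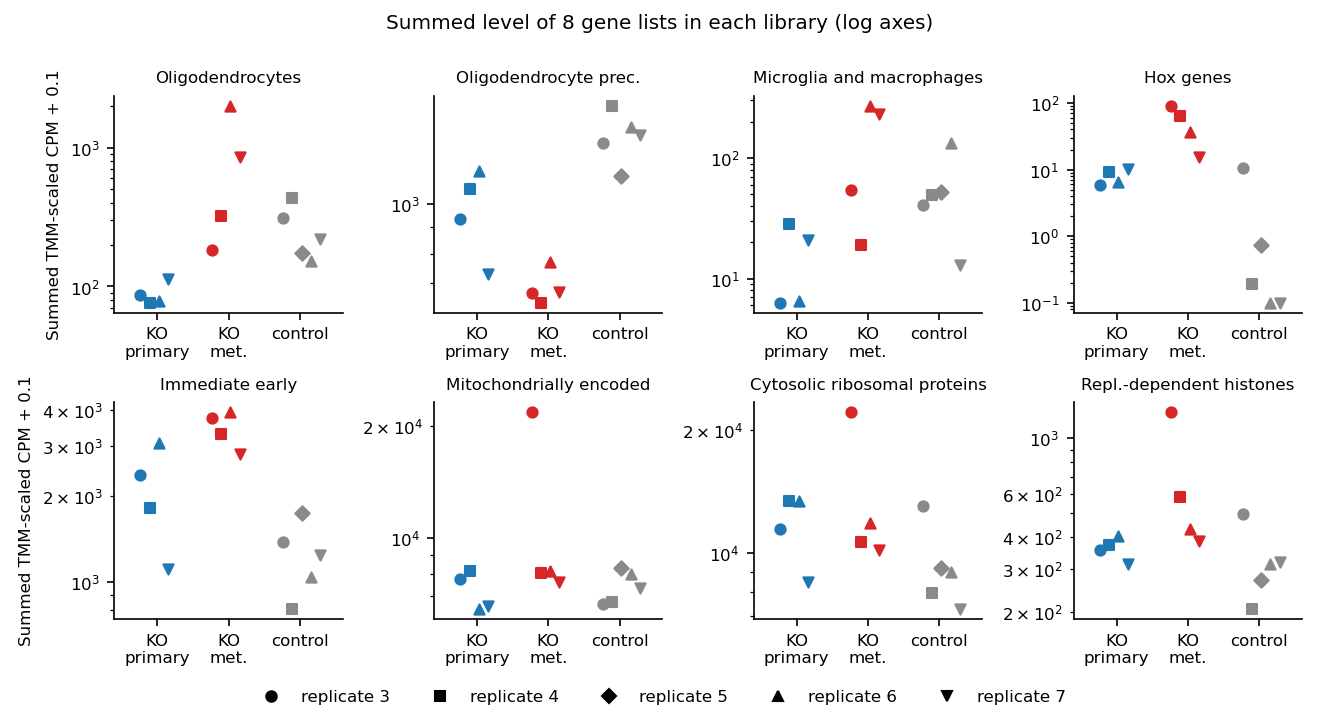
Each panel gives the summed level of 1 gene list (TMM-scaled CPM + 0.1, log axis) in each library of KO primary, KO metastasis (KO met.) and control, with 1 marker shape per replicate number. Oligodendrocyte and microglia sums are highest in metastases 6 and 7, Hox sums are highest in metastasis 3 and lowest of the metastases in 7, immediate early genes are above most primaries in all 4 metastases, and mitochondrial, ribosomal and histone sums are highest in metastasis 3.

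The genes Ren1 and Rcan2 were high in metastases 3, 4 and 6 and low in 7. Ren1, which encodes the enzyme renin that starts the angiotensin pathway (chromosome 1, positions 133350510 to 133360325, + strand, GRCm38), was at 19, 17.3, 9.18 and 0.813 CPM in primaries 3, 4, 6 and 7 and at 299, 221, 114 and 7.28 CPM in metastases 3, 4, 6 and 7. Metastases 3, 4 and 6 were above every primary, and metastasis 7 was below primaries 3, 4 and 6. The means ± SD were 11.6 ± 8.35 and 160.1 ± 127 CPM and the log2 change was 3.79 (SE 1.08). Controls were at 0.108 to 2.55 CPM. Rcan2, a regulator of calcineurin, was at 14.2, 5.11, 9.79 and 2.55 CPM in the primaries and at 92.2, 92.1, 64.4 and 6.33 CPM in the metastases, with a log2 change of 3.01 (SE 0.695). Its controls were at 1.79 to 6.24 CPM. Without the high-background libraries, which takes replicate 7 out of both groups and metastasis 6 out of its own, both genes were called, with log2 changes of 4.10 for Ren1 (edgeR adjusted p = 0.00591) and 3.25 for Rcan2 (edgeR adjusted p = 0.0301). Those calls rest on metastases 3 and 4. With metastasis 3 left out too, metastasis 4 alone remains, and no p-value is given.

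Genes of the anterior Hox clusters, which give hindbrain and spinal segments their position, had counts in the metastases and, at a lower level, in the KO primaries. Of 39 Hox genes, 6 passed the filter, and a Hox gene with counts in 1 group alone had to differ to pass it. Hoxb4 (chromosome 11, positions 96318267 to 96321638, + strand, GRCm38) was at 1.04, 1.03, 1.72 and 0.379 CPM in the primaries and at 32.4, 12.6, 8.01 and 0.115 CPM in the metastases. Metastases 3, 4 and 6 were above every primary and metastasis 7 was below every primary (log2 change 3.66, SE 0.996). Hoxb2, its neighbour in the cluster, was at 0.704 to 2.12 CPM in the primaries and at 20.9, 18.1, 6.92 and 0.0288 CPM in the metastases. Hoxb3, between the pair, was at 0.108 to 1.72 CPM in the primaries and at 23.5, 18.8, 9.20 and 0 CPM in the metastases. The antisense gene Hoxb3os overlaps Hoxb3 and no source used here says whether counting used strand, so their reads cannot be told apart. Hoxb3os was at 15.77, 7.82, 4.07 and 0 CPM in the metastases.

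Hoxa2, in the cluster on chromosome 6 (positions 52162417 to 52164831, - strand, GRCm38), differed from the Hoxb genes in 1 library. It was at 1.56, 4.71, 1.35 and 0 CPM in the primaries and at 13.2, 13.2, 5.13 and 11.5 CPM in the metastases, so that metastasis 7, in which Hoxb3 and Hoxb4 were nearly absent, had 399 Hoxa2 reads. The groups did not overlap (log2 change 2.49, SE 0.981). The reads of the 12 Hox genes of paralogue groups 1 to 4 summed to 221, 329, 227 and 105 in the primaries and to 2507, 2370, 879 and 454 in the metastases. They summed to 114 in control 3, a high-background library, and to 0 to 14 in the other 4 controls. The 27 genes of groups 5 to 13, which mark cervical to caudal cord, had 4, 0, 16 and 271 reads in the primaries and 18, 0, 147 and 72 in the metastases. Their counts of 72 or more lay in the high-background libraries, with 162 in control 3. Without those libraries the log2 changes were 3.54 for Hoxb2, 3.93 for Hoxb3 (edgeR adjusted p = 0.0301) and 4.14 for Hoxb4 (edgeR adjusted p = 0.0301). With metastasis 3 left out as well, which leaves metastasis 4 alone, they were 3.46, 3.78 and 3.33. With limma voom on all libraries, weighted by quality, the sign turned for Hoxb2 (-1.29) and Hoxb3 (-1.42). Meis2, a cofactor of Hox proteins, was at 0.767 to 3.60 CPM in the primaries and at 55.9, 8.20, 4.21 and 1.90 CPM in the metastases, highest by far in metastasis 3. Meis1, its relative in granule cell precursors, was at 258 to 386 and 245 to 402 CPM.

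Immediate early genes, which neurons and tumour cells switch on within minutes of stimulation and which tissue dissociation also induces, were higher in the metastases. Of the 24 listed, 6 had all 4 metastases above all 4 primaries, beside 0.683% of all genes tested. Promoters of immediate early genes often hold the sequence TGACG, the core of the cyclic AMP response element. The windows of 3 of these genes with no overlap between groups are shown from RefSeq (GRCm38.p6), from 250 bases before to 50 bases after the start, 5′ to 3′ on the gene's strand, with each TGACG (or CGTCA, the same motif on the other strand) in capitals. Fos lies at chr12:85473640-85473939 (+), Fosb at chr7:19309996-19310295 (-) and Nr4a1 at chr15:101266596-101266895 (+).
Fos: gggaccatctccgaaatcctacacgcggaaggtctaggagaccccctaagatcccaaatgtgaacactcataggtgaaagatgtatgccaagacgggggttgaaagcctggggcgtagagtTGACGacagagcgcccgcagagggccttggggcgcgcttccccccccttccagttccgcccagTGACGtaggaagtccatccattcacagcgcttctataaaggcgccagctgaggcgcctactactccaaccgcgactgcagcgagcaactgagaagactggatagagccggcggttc
Fosb: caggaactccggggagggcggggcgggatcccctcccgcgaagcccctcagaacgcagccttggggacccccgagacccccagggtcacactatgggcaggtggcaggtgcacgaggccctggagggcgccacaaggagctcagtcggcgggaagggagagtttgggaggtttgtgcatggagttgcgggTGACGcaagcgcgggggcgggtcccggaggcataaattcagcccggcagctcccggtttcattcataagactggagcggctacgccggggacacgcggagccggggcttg
Nr4a1: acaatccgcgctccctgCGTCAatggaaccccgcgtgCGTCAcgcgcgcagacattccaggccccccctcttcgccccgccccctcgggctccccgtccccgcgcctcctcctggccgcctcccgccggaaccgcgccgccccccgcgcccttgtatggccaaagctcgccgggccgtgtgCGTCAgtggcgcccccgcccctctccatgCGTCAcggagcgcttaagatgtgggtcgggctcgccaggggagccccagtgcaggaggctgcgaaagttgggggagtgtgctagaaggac
The windows shown, each the first of its gene to hold the motif, have 2, 1 and 4 copies in Fos, Fosb and Nr4a1. TGACG on either strand is in 15 of the 23 windows found for 19 of the 24 listed genes (65.2%) and in 20.8% of all 32851 windows. The full element TGACGTCA, which contains it, is in 1 of the 23 (4.35%), that of Dusp1, and in 1.79% of all. The motif TGANTCA, bound by dimers of Fos and Jun proteins, is in 0 of the 23 and in 7.81% of all. The CArG box, the serum response element core, is in 5 of the 23 (21.7%), those of Egr2 and Zfp36, and in 1.63% of all.

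Fos, a transcription factor subunit, was at 92.6, 69.3, 198 and 30.1 CPM in the primaries and at 386, 259, 358 and 254 CPM in the metastases. The lowest metastasis was above the highest primary. Means ± SD were 97.5 ± 71.8 and 314 ± 67.6 CPM and the log2 change was 1.69 (SE 0.579, 95% interval 0.44 to 2.93). Its controls were at 10.9 to 65.3 CPM, so the order was control, KO primary, KO metastasis, with overlap between the first pair. Fosb, its paralogue with the single motif, was at 15.5, 7.86, 15.6 and 5.31 CPM in the primaries and at 75.8, 21.2, 50.2 and 28.1 CPM in the metastases, with a log2 change of 1.98 (SE 0.792). Nr4a1, an orphan nuclear receptor whose window holds 4 motifs, was at 4.87, 4.19, 5.92 and 2.38 CPM in the primaries and at 15.84, 10, 13.3 and 7.77 CPM in the metastases, with a log2 change of 1.43 (SE 0.393). The groups did not overlap in these 3 genes, which was a condition for naming them.

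Further members also had no overlap. Jund, a partner of Fos, was at 46.8 to 84.6 CPM in the primaries and 86.7 to 172 CPM in the metastases (log2 change 0.82, SE 0.225). The Krüppel-like factor genes Klf2 and Klf4 were at 0.488 to 1.30 and 0.299 to 0.433 CPM in the primaries, and at 1.62 to 4.32 and 0.557 to 4.56 CPM in the metastases. Junb, at 12 to 83.3 and 68.1 to 137 CPM, and Egr1, at 230.2 to 993 and 978 to 1332 CPM, had higher levels in most metastases but overlapped with primary 6. Of the 24 genes of the list, all tested, none was called. At an unadjusted p below 0.05, 11 were higher, beside 1.94% of all genes, and none was lower. The metastases lay above without overlap in 6, beside 0.683% of all genes. A positive change was found in 22 of the list, beside 49.6% of all genes, with a list median of 0.73. The summed level was 2366, 1813, 3056 and 1108 CPM in the primaries, 3756, 3292, 3937 and 2813 CPM in the metastases, and 803 to 1748 CPM in the controls. Metastasis 7 was below primary 6. A positive change was found in 23 of the 24 without metastasis 3 and in 23 of the 24 without the high-background libraries, where the median was 0.48. The labels give no time between dissection and freezing, and its part in these levels was not tested.

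Some genes of young neurons had all 4 metastases above all 4 primaries. Map1b, a microtubule-associated protein of growing axons (chromosome 13, positions 99421446 to 99516540, - strand, GRCm38), was at 422, 414, 351 and 479 CPM in the primaries and at 1209.6, 1105, 547 and 652 CPM in the metastases. The groups did not overlap, with means ± SD of 416 ± 52.5 and 879 ± 328 CPM and a log2 change of 1.08 (SE 0.251). Controls were at 507 to 909 CPM. Without the high-background libraries, which leaves metastases 3 and 4, the log2 change of Map1b was 1.55 (edgeR adjusted p = 0.0301). With metastasis 3 left out as well, which leaves metastasis 4 alone, it was 1.5. Tubb3, the neuronal tubulin, was at 180.4, 141, 232 and 227 CPM in the primaries and at 436, 255, 265 and 304 CPM in the metastases (log2 change 0.69, SE 0.248). No metastasis reached the 652 to 790.3 CPM of controls 3, 4, 6 and 7, and metastasis 3 alone was above the 351 CPM of control 5.

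Dpysl3, which guides growth cones, was at 94.2 to 99.0 CPM in the primaries and at 269, 153, 118 and 111 CPM in the metastases (log2 change 0.76, SE 0.225). Pou4f1, a homeobox factor of sensory and brainstem neurons, was at 16.4 to 25.6 CPM in the primaries and at 73.5, 62.6, 25.9 and 37.9 CPM in the metastases (log2 change 1.2, SE 0.498). Both had no overlap, and both were highest in metastasis 3. Cntn2, an axonal adhesion molecule of early granule neurons, was at 144, 87.1, 78.8 and 88.9 CPM in the primaries and at 460.0, 234, 172 and 96.4 CPM in the metastases, with overlap. The shares over all genes were 1.94% higher and 1.29% lower at an unadjusted p below 0.05, with 49.6% of changes positive. The list of early granule neuron differentiation held 24 genes, all tested. None was called, 4 were higher (Cntn2, Dpysl3, Sox11 and Tubb3) and none lower at an unadjusted p below 0.05, and 19 had a positive change (median 0.24). Neurod1, a transcription factor of granule neurons, was at 132 to 219 CPM in the primaries and 101 to 222 CPM in the metastases, and Dcx, a microtubule protein of migrating neurons, at 131 to 161 and 138 to 201 CPM (log2 change 0.14 for each), with overlap. Of the 28 genes of mature granule neurons and synapses none was called, 3 were lower and none higher, and 21 had a negative change (median -0.31). That median was -0.05 without primary 3 or without primary 7, -0.43 without primary 4, -0.51 without primary 6, -0.07 with only the knockout libraries and -0.02 with limma voom.

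**Figure D4:**
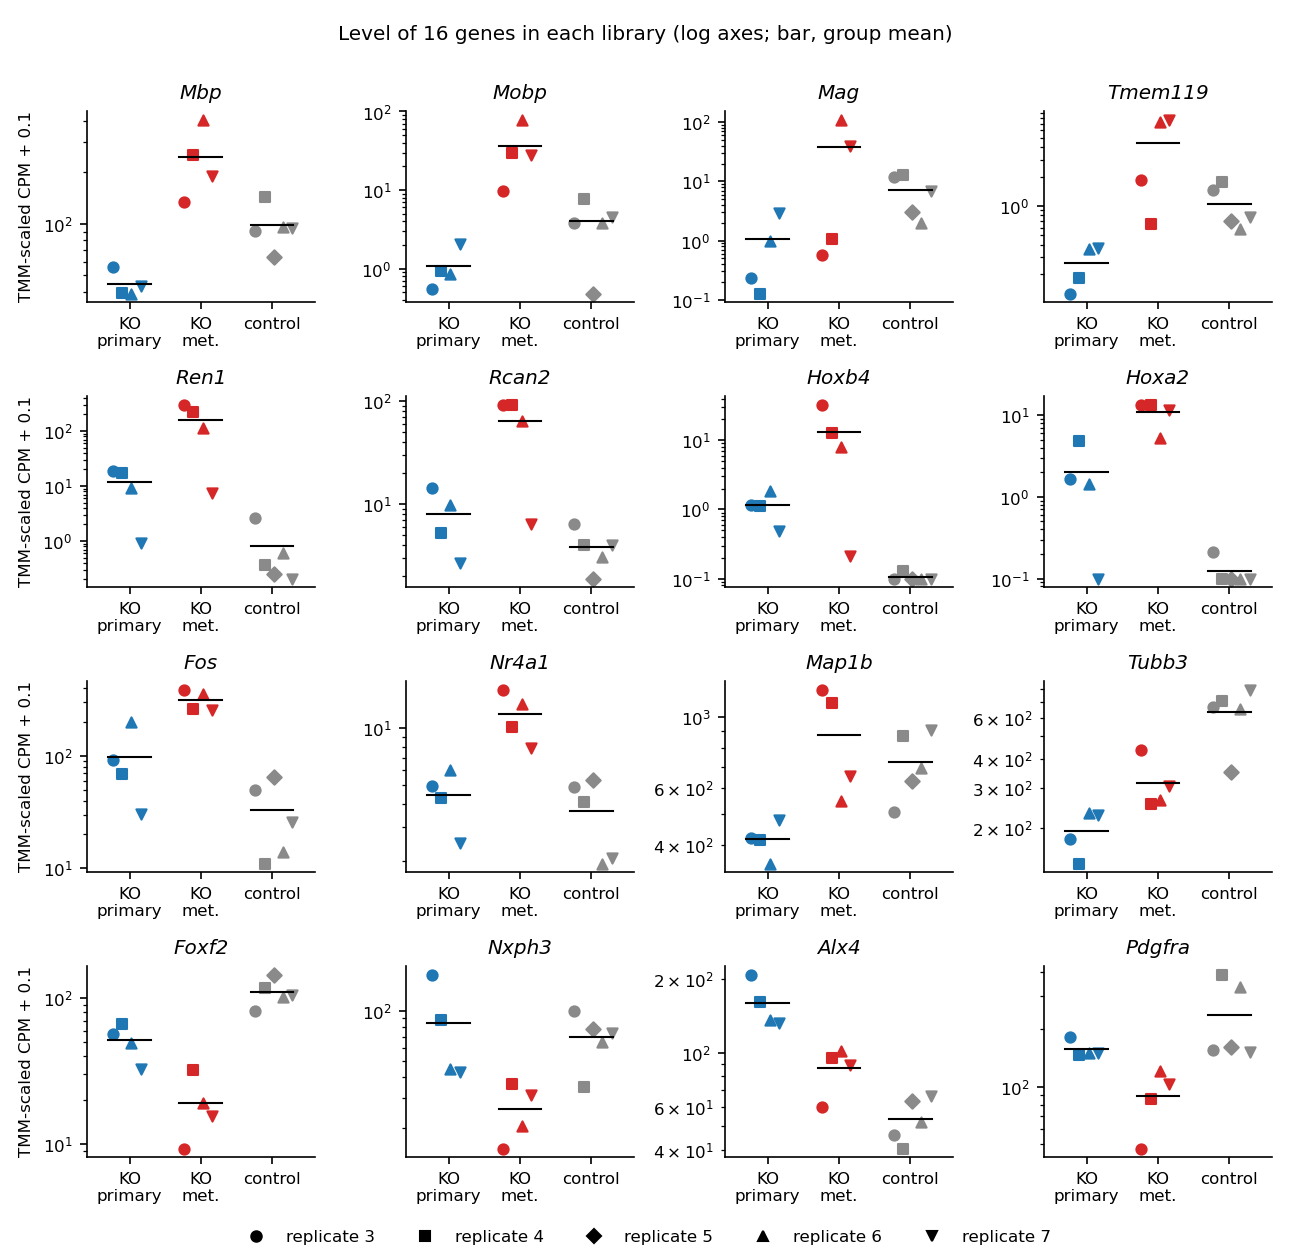
Each panel gives the level of 1 gene (TMM-scaled CPM + 0.1, log axis) in each library of KO primary, KO metastasis (KO met.) and control, with 1 marker shape per replicate number and a bar at the group mean. Mbp, Mobp, Tmem119, Hoxa2, Fos, Nr4a1, Map1b and Tubb3 have all 4 metastases above all 4 primaries, Mag, Ren1, Rcan2 and Hoxb4 do not, and Foxf2, Nxph3, Alx4 and Pdgfra have all 4 metastases below.

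Some further genes had all metastases above all primaries. Scd1, a desaturase that makes unsaturated fatty acids, was at 5.5, 3.4, 6.4 and 5.25 CPM in the primaries and at 17.1, 9.84, 15.2 and 12.8 CPM in the metastases (log2 change 1.42, SE 0.477). It was the only one of 27 genes of cholesterol and fatty acid synthesis with an unadjusted p below 0.05, beside 3.23% of all genes. A positive change was found in 24 of the 27 (median 0.16), beside 49.6% of all genes. Pgm2, a phosphoglucomutase, was at 9.07 to 14.9 CPM in the primaries and at 48.4, 54.6, 17.6 and 16.0 CPM in the metastases (log2 change 1.51, SE 0.388). Btg2, an antiproliferative gene and p53 target, was at 51.1 to 85.3 CPM in the primaries and at 98.1 to 167 CPM in the metastases (log2 change 0.83, SE 0.229), and overlapped with the 113 to 192 CPM of the controls. Mroh2a, of which no function is stated here, was at 113, 315, 276 and 192 CPM in the primaries and at 962, 638, 412 and 447 CPM in the metastases (log2 change 1.46, SE 0.42).

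On the lower side were several developmental transcription factors and surface genes. Foxf2, a forkhead factor (chromosome 13, positions 31625816 to 31631403, + strand, GRCm38), was at 56.7, 66.8, 49.0 and 32.7 CPM in the primaries and at 9.23, 32.2, 19 and 15.4 CPM in the metastases. The highest metastasis lay just under the lowest primary, and every KO library was below the controls at 81.5 to 144 CPM. The means ± SD were 51.3 ± 14.4 and 18.9 ± 9.70 CPM and the log2 change was -1.44 (SE 0.325). Foxf2 was the gene called lower by limma voom and 1 of the 5 called lower by DESeq2. Alx4, a homeobox factor, was at 207, 160.3, 136 and 132 CPM in the primaries and at 59.7, 94.8, 101 and 88.7 CPM in the metastases (log2 change -0.88, SE 0.21). Its controls, at 40.4 to 66.2 CPM, were below all KO primaries, with metastasis 3 among them and the other metastases between. DESeq2 called Alx4 lower as well. Meox2, a further homeobox gene, was at 3.15 to 7.18 CPM in the primaries and 0.633 to 2.20 CPM in the metastases (log2 change -2.34, SE 0.704).

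Nxph3, a secreted ligand of neurexins, was at 164, 88.2, 44.6 and 43.1 CPM in the primaries and at 14.9, 36.3, 20.3 and 31.2 CPM in the metastases, with a log2 change of -1.72 (SE 0.439). Fbln2, a matrix protein, was at 52.9, 37.9, 30.8 and 25.5 CPM in the primaries and at 9.41, 16.0, 21.2 and 8.86 CPM in the metastases (log2 change -1.41, SE 0.376), and the metastases overlapped with the controls at 6.61 to 19.2 CPM. Slc6a11, a GABA transporter, was at 49.0, 33.9, 44.3 and 33.5 CPM in the primaries and at 10.1, 17.2, 26.8 and 21.5 CPM in the metastases (log2 change -1.09, SE 0.259), under the 29.9 to 48.7 CPM of the controls. No overlap between the KO groups was a condition for naming these 3 genes. Acsf3, a mitochondrial acyl-CoA synthetase, was at 191 to 373 CPM in the primaries and at 72.2, 188, 186 and 141 CPM in the metastases, all above controls at 26.8 to 67.0 CPM. Ntn4, a netrin of basement membranes, was at 67.9 to 131 CPM in the primaries and at 25.9, 66.5, 59.2 and 56.5 CPM in the metastases. Lmnb1, a nuclear lamin abundant in dividing precursors, was at 638, 568, 671 and 563 CPM in the primaries and at 281, 469, 511 and 289.7 CPM in the metastases. Metastasis 3 was the lowest metastasis for Foxf2, Alx4, Nxph3, Slc6a11, Acsf3, Ntn4 and Lmnb1. Without it the log2 change of Foxf2 was -1.18.

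The targeted gene and the driver overlapped between the groups. Kmt2d was at 91.7, 93.0, 111 and 168 CPM in the primaries and at 115, 105, 111 and 131 CPM in the metastases (log2 change -0.01, 95% interval -0.52 to 0.51). Counts over the whole gene do not check a deletion of some exons, and controls were at 78.1 to 175 CPM. Smo, whose counts hold both the native gene and any mouse coding sequence of the transgene, was at 279.6 to 439 CPM in the primaries and 190.2 to 416 CPM in the metastases (log2 change -0.30, SE 0.233). Gli1, the transcription factor that reports Hedgehog activity, was at 188, 160.2, 170.2 and 173 CPM in the primaries and at 204, 144, 152 and 132 CPM in the metastases (log2 change -0.13, SE 0.242). Ptch1, the receptor that Hedgehog signalling induces, was at 439.8 to 769.6 and 322 to 589 CPM (log2 change -0.31, SE 0.279). Of all genes, 1.94% were higher and 1.29% lower at an unadjusted p below 0.05, and 49.6% had a positive change. Of 18 Hedgehog genes tested out of 20, none was called, 1 was higher and none lower at an unadjusted p below 0.05, and 3 had a positive change, with a median of -0.29. The gene was Ccnd2, a G1 cyclin, at 1304 to 1654 CPM in the primaries and 1383 to 2858 CPM in the metastases.

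Genes of granule cell precursor identity were present at like levels in both groups. For all genes, the share higher at an unadjusted p below 0.05 was 1.94%, and 49.6% had a positive change. Atoh1, the factor that defines the precursors, was at 653, 787, 589.9 and 706 CPM in the primaries and at 371, 861, 548 and 738 CPM in the metastases (log2 change -0.12, SE 0.215). Barhl1, which acts after Atoh1, was at 922 to 1098 CPM in the primaries and at 1456, 1588, 1085 and 1077 CPM in the metastases, with a log2 change of 0.42 (SE 0.173). Of the 16 listed genes none was called, 1 was higher at an unadjusted p below 0.05 and 11 had a positive change (median 0.12). Proliferation genes overlapped between the groups. Mki67, a marker of dividing cells, was at 579 to 651 CPM in the primaries and 526 to 670.3 CPM in the metastases (log2 change -0.01, 95% interval -0.44 to 0.42). None of 26 genes of G1/S and DNA replication and none of 24 of G2/M and mitosis had an unadjusted p below 0.05, with medians of -0.11 and -0.04. For G2/M 9 of the 24 had a positive change. By mean CPM without metastasis 3, 20 of the 24 were higher in the metastases. In the new fit without metastasis 3 the G2/M median was 0.09, beside 0.06 over all genes.

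Families linked to invasion and spread are given as counts of genes. Over all genes tested, 1.94% were higher and 1.29% lower at an unadjusted p below 0.05. None of the 13 epithelial-mesenchymal transition genes tested, out of 20, was called. 1 was lower at an unadjusted p below 0.05 and 4 had a positive change (median -0.12). Zeb1, a repressor of epithelial genes that precursors use to stay in the germinal zone, was at 475 to 538 CPM in the primaries and 449 to 516 CPM in the metastases (log2 change -0.06, SE 0.157). Vim, an intermediate filament gene, was at 235 to 452 and 305 to 722 CPM (log2 change 0.39, SE 0.261). At an unadjusted p below 0.05, 0 of 31 collagen genes were higher and 1 lower (median -0.10), 2 of 41 other matrix genes were higher and 2 lower (-0.07), 3 of 32 matrix proteases and inhibitors were higher and none lower (0.02), 1 of 20 integrins was higher and 1 lower (0.11), 0 of 35 cadherins were higher and 2 lower (-0.27), and 0 of 52 axon guidance genes were higher and 2 lower (-0.07). The matrix genes that were higher were Spp1 and Sparc. Spp1, osteopontin, which macrophages also make, was at 0.182 to 0.731 CPM in the primaries and at 5.93, 0.345, 10 and 2.91 CPM in the metastases. Sparc, also made by microglia, was at 1.88, 7.64, 2.64 and 2.76 CPM and at 16.8, 5.49, 34.5 and 20.5 CPM. The integrin was Itgb5, a microglial integrin chain, at 0.443 to 1.88 CPM in the primaries and 2.80, 2.23, 14.6 and 12.5 CPM in the metastases. All 3 had their highest value in metastasis 6, as the summed microglial markers did.

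Among signalling families, chemokines had the larger count. Of 22 chemokines and receptors tested, 5 were higher at an unadjusted p below 0.05, where 1.94% of all genes were, and none was lower (median 0.52), among them Ccl3, Ccl4, Ccl7 and Cx3cr1, genes of microglia and macrophages. Of 44 growth factor and receptor tyrosine kinase genes 1 was higher and 1, Pdgfra, lower (median -0.06). The Notch list had 2 higher and 2 lower of 20 (0.05), the Wnt list 1 and 1 of 22 (-0.31) and the BMP and TGF-beta list 3 and 1 of 26 (0.10). None of 31 hypoxia and glycolysis genes had an unadjusted p below 0.05 (median -0.03). The enzymes of H3K4 and H3K27 methylation had 1 higher and none lower of 21 (-0.01). The higher gene was Kdm6b, at 19.5 to 29.4 CPM in the primaries. It was at 90.7, 23.6, 27.7 and 31.4 CPM in metastases 3, 4, 6 and 7.

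Markers of the other cell types that a spinal sample could hold had at most 2 small p-values a list. The shares over all genes were 1.94% higher and 1.29% lower. Of 13 astrocyte markers 2 were higher and none lower at an unadjusted p below 0.05 (median 0.06), and Gfap, the intermediate filament of astrocytes, was at 25.5 to 100.2 CPM in the primaries and 50.5 to 71.2 CPM in the metastases. Of 11 endothelial markers none had an unadjusted p below 0.05 (median -0.10), and their sums were 3.00 to 26.7 and 2.30 to 17.3 CPM. Of 8 pericyte markers 2 were lower (-0.23). All 6 Schwann cell markers tested had a positive change, 1 of them at an unadjusted p below 0.05 (median 0.71). Their sums were 28.7 to 76.4 CPM in the primaries and 65.3 to 104.6 CPM in the metastases. Most of each sum was Egr2, also on the immediate early list, at 18.2 to 66.2 and 49.7 to 79.2 CPM. Of 6 erythroid markers 5 had a positive change and 1 was higher at an unadjusted p below 0.05 (median 1.11), with sums of 2.96 to 5.12 CPM in the primaries and 11.8, 2.79, 9.27 and 5.03 CPM in metastases 3, 4, 6 and 7. Spinal motor neuron markers had 1 higher of 8 (0.14), and none of 7 spinal interneuron markers had an unadjusted p below 0.05 (-0.65). The markers of fibroblasts and meninges (11 tested), skeletal muscle (6) and lymphocytes (5) had none.

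A last set of lists moved with metastasis 3. For all genes, the share higher at an unadjusted p below 0.05 was 1.94%, and 49.6% had a positive change. All 12 mitochondrially encoded genes tested had a positive change, 10 of them at an unadjusted p below 0.05 (median 0.79). Their sum was 21734 CPM in metastasis 3 and 7630 to 8176 CPM in the other metastases, beside 6443 to 8148 CPM in the primaries. Without metastasis 3 the median was 0.36. Of 36 cytosolic ribosomal protein genes 35 had a positive change (median 0.30), and without metastasis 3 this was 8 of 36 (median -0.04). Their sum was 22163 CPM in metastasis 3 and 10147 to 11866 CPM in the other metastases. Of 28 replication-dependent histone genes 5 were higher and 26 had a positive change (median 0.73). Without metastasis 3 there were 19 with a positive change and the median was 0.24. These transcripts lack a poly(A) tail in dividing cells. Their sum was 1274 CPM in metastasis 3, 385 to 579.5 CPM in the others and 314 to 405 CPM in the primaries. RNA quality was not given in the labels, and its part in metastasis 3 was not tested.

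**Figure D5:**
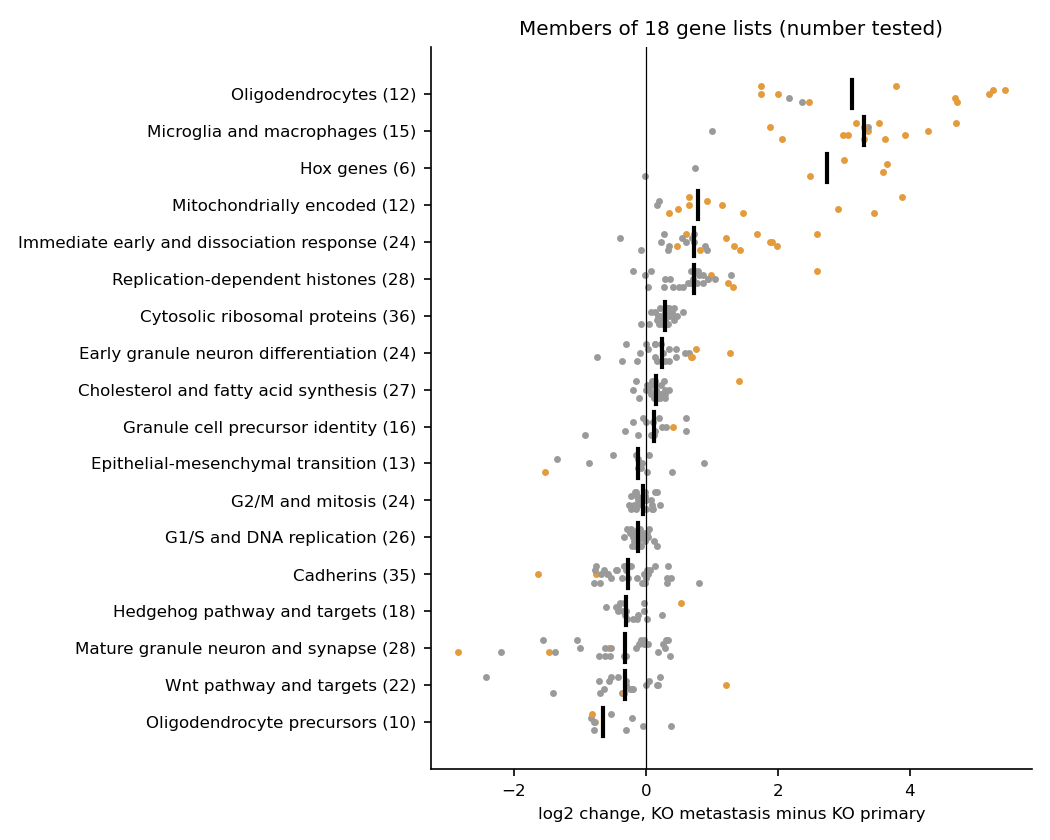
Each point is the log2 change of 1 gene from KO primary to KO metastasis, in rows of 18 gene lists with the number of genes tested. Orange points have an unadjusted p below 0.05 and the black bar is the median of the list. Oligodendrocyte, microglia and Hox genes have medians of 3.13, 3.31 and 2.75, while the Hedgehog, cell cycle, cadherin and epithelial-mesenchymal lists have medians between -0.29 and -0.04. The Hox row holds only the 6 of 39 genes that passed the filter. The Hox median was 0.95 with no filter and 1.19 with limma voom.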

How the data were processed

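RNA was measured by sequencing of sorted tumour cells in 13 libraries, made with the TruSeq RNA kit per the labels' protocols. The submitters' processing notes name STAR 2.4, HTSeq 0.6.1, DESeq2 and the genome build mm10, and the deposited table holds raw counts of reads per gene symbol, not normalized. No source used here gives the gene annotation or the strand setting. From these counts, genes were filtered with filterByExpr by group (10 counts at least, 15 in total), normalized with TMM factors and fitted with edgeR 4.0.16 (limma 3.58.1, R 4.3.3) over all 13 libraries in 3 groups, and the quasi-likelihood F test of KO metastasis against KO primary was adjusted by Benjamini-Hochberg over all genes tested. Library totals were 23545383 to 41412288 counts. Intervals of log2 changes are 95%.

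The rule for named genes was Kmt2d and Smo, up to 15 called genes each way with no overlap and a mean of at least 5 CPM in the higher group, and the leading members of each list. As 1 gene was called, the rule's unadjusted form was used, after values were seen. Ren1, Rcan2, the Hox, Meis and Trim genes and the further myelin, microglial and mitochondrial genes were also chosen after their values were seen. The comparison, members and lists were chosen with earlier results of these data known. Positions come from GENCODE M21 (GRCm38), which held 15811 of the symbols tested. Promoter sequences come from RefSeq (GRCm38.p6), with a window for 19 of 24 immediate early genes. Alternatives were other fits (DESeq2 1.42.0, limma voom with quality weights), scalings, filters, a replicate block, and left-out libraries. Some listed genes are counted in their lists but not reported here by name. The scripts were tested on simulated data. Intervals cover the spread between libraries only.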

Additional observations from a re-analysis of the deposited data

Results flagged for a closer look

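In the 158 groups of values checked, a rate of 1 in 20 would give 7.9 flags. Meis2 and the Trim genes were checked after their values were seen, so no excess can be read from a count of flags. In 13 groups 1 library lay far from the other 3 of its group. Of these, 5 were in metastasis 3: Meis2 at 55.9 CPM (others 1.90 to 8.20), Trim30c at 102 CPM (others 0 to 0.316), Trim30a at 217 CPM (others 0.106 to 1.26), the mitochondrially encoded sum at 21734 CPM (others 7630 to 8176) and the ribosomal protein sum at 22163 CPM (others 10147 to 11866). In metastasis 4, Meox2 was at 2.20 CPM (others 0.633 to 0.808).

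Among the primaries, replicate 7 stood apart in Ccnd2 at 1654 CPM (others 1304 to 1339.6), Spp1 at 0.731 CPM (others 0.182 to 0.264), Trim30c at 0.271 CPM (others 0) and the receptor genes at 723 CPM (others 7.44 to 83.5). Replicate 4 stood apart in Barhl1 at 1098 CPM (others 922 to 939) and Sparc at 7.64 CPM (others 1.88 to 2.76), and replicate 3 in Pdgfra at 181 CPM (others 147 to 151).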

How the results depend on the processing

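Mbp was higher under all 24 alternatives (log2 change 2.11 to 2.71) and was called in 10 of them. Of 64 genes followed, 51 had the same sign in every alternative that tested them and 21 were called in at least 1. Against 1 gene called (1 higher, 0 lower), the count was 0 with only the knockout libraries and 0 with receptor level as a covariate. It was 5 (all higher: Hoxb3, Hoxb4, Map1b, Rcan2 and Ren1) without the high-background libraries, which leaves metastases 3 and 4. With no filter it was 2 (both higher: Mbp and Mobp), with limma voom 2 (1 higher, 1 lower) and with DESeq2 33 (28 higher, 5 lower). The fit that also left out metastasis 3, chosen after seeing the data, held metastasis 4 alone, and no count is given. Leaving out 1 library gave 0 to 2 calls, all higher. It gave 380 genes (without metastasis 3) to 1415 (without primary 7) at an unadjusted p below 0.05. With the replicate number as a block, 10 genes were called, all higher (Ccl4, Fosb, Mag, Mbp, Mobp, Plekhb1, Rcan2, Ren1, Tmem119 and a clone-named gene), and with the block and the receptor covariate 7. Same-numbered libraries correlated at 0.36, 0.49, 0 and 0.68 in their deviations from the group means, and 2 of 4 metastases correlated best with their own number, so the numbers were not taken to pair the samples. The median change over all genes reached 0.106, without primary 7, and list medians of Hedgehog (-0.42 to 0.07), G1/S (-0.16 to 0.07), G2/M (-0.12 to 0.17) and ribosomal protein genes (-0.26 to 0.44) took either sign. The causes of these moves were not tested. The number of libraries, 4 a group, and a median standard error of 0.213 set the precision.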

Other observations

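The interferon-regulated Trim genes that neighbour each other on chromosome 7 were high in some libraries and near 0 in others, in patterns that crossed the groups. Trim30a was at 217 CPM in metastasis 3, 50.9 CPM in control 6 and 6.00 CPM or less in the other libraries. Trim30c was at 102 CPM in metastasis 3, 99.6 CPM in control 6 and 5.02 CPM or less elsewhere. Trim34a was at 25.5 CPM in metastasis 3 and at most 1.18 CPM elsewhere. Trim30b was at 20.3 and 42.1 CPM in metastases 3 and 6, 93.2 and 81.3 CPM in controls 5 and 6, and 6.84 CPM or less elsewhere. In the list of interferon response genes, 1 of 29 was higher in the metastases at an unadjusted p below 0.05. None was lower (median log2 change 0.03). The shares over all genes were 1.94% higher and 1.29% lower.

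A few genes took 1 of 2 levels in a pattern that also crossed the groups. The mitochondrial gene mt-Co2 was at 6.79 and 23.8 CPM in metastases 3 and 6 and at 5.45, 5.51 and 3.25 CPM in controls 4, 5 and 6, but at 0.38 to 0.625 CPM in the other 8 libraries. mt-Atp6 was at 25.1 and 17.3 CPM in these metastases, 8.92, 15 and 16.1 CPM in these controls and at most 1.43 CPM elsewhere. The clone-named gene RP23-314A15.8 was at 14.8 and 14.7 CPM, 12.1, 11.7 and 9.75 CPM, and at most 0.456 CPM, in the same 3 sets of libraries.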
